A study of Mus musculus with 7 samples.

Results

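Keratins are the intermediate filament proteins of epithelial cells. Each filament is built from pairs of a smaller acidic type I keratin and a larger type II keratin, and the pair an epithelium makes marks its kind. Basal cells of the epidermis make *Krt5* with *Krt14*, the suprabasal layers switch to *Krt1* with *Krt10*, simple epithelia use *Krt8* with *Krt18*, and the hair shaft and its inner root sheath have sets of their own. The main intermediate filament of muscle fibers is desmin instead.

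The keratins were taken by symbol, as every gene named Krt followed by a number and at most 1 letter, and 38 of the 31531 genes measured had such a name. Of these, 18 are type I and 20 type II genes, 37 are annotated as protein coding and *Krt74*, of type II, as a transcribed pseudogene, and 17 lie on chromosome 11 and 21 on chromosome 15 of GRCm39, in the gene clusters of the 2 types. The clusters are not wholly pure, since *Krt18*, a type I gene, lies on chromosome 15 beside its type II partner *Krt8*. RNA came from muscle fibers freed by dispase and collagenase from the epaxial muscles of E17.5 fetuses of crosses between heterozygous dyW C57BL/6 mice. There were 4 wild-type (WT) fetuses and 3 fetuses homozygous for dyW, a disrupted *Lama2* allele that models LAMA2-CMD, with 1 SMART-seq2 library from each fetus. No other allele or agent is named for either group.

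Values are normalized counts, the reads on a gene divided by 1 size factor for the library. Reads counted on genes ranged from 470804 to 2220813 in WT and from 3663905 to 18297106 in dyW, and 1 read was worth from 2.05 to 5.33 normalized counts in WT but from 0.0974 to 0.488 in dyW. A single read in any WT library is therefore a higher normalized count than 3 reads, the most that a count of 0 allows, in any dyW library. *Lama2* itself was at 90.6, 110.6, 105 and 107 normalized counts in WT1 to WT4 and at 4.29 and 6.07 in dyW1 and dyW2, but at 139.7 in the third dyW library, above every WT library. That library is called the library labelled dyW3 here, and it takes part in every direction given for the group. The fiber label was checked on 10 myofiber markers: all 10 had reads in 6 libraries, whereas dyW1 had no read of *Des*, *Ckm*, *Myh3*, *Myh8* or *Actn2* and a summed level of 46.7, against 4673 and 8949 in the other dyW libraries and 2564 to 69082 in WT. WT1 in turn had no read of the globin genes *Hbb-bt* and *Hbb-bs*. The part of these libraries in the keratin values was not tested, and the counts of calls are given without each of them.

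Keratin RNA was low in every library, and its summed level was lower in dyW. In WT the 38 keratins summed to 421, 663, 273 and 724 normalized counts, from 79, 246, 133 and 230 reads. In dyW1, dyW2 and the library labelled dyW3 they summed to 9.74, 66.1 and 72.3 normalized counts, from 100, 523 and 148 reads. The means were 520 ± 210 (SD, n = 4) and 49.4 ± 34.5 (SD, n = 3), and every WT library stood above every dyW library. As a share of all reads on genes, in reads per 1e6, the keratins took 168, 167, 59.9 and 131 in WT and 6.96, 28.6 and 40.4 in dyW, again without overlap. With bulk RNA, fewer cells of a type and less RNA in each cell cannot be told apart, and the WT keratin reads lie near the level of receptor genes of the nose, whose values are given further on.

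The 2 genotypes differed in how the reads were spread over the family. WT libraries had a read on 27, 38, 35 and 38 of the 38 keratins, and no keratin took more than 9.13% of the keratin reads of a WT library. The dyW libraries had a read on 4, 7 and 9 keratins, although more reads were counted in each of them than in any WT library. In percent, 71.1 to 100 of the keratins had a read in WT and 10.5 to 23.7 in dyW, beside 81.0 to 93.9 and 45.1 to 61.4 of all genes. The fall was not particular to keratins. Of 1207 receptor genes of the nose, 79.8% to 98.3% had a read in WT. In dyW1, dyW2 and the library labelled dyW3, 15.9%, 9.69% and 56.5% of them did. *Krt10* alone took 85% of the keratin reads of dyW1 and 87.4% of those of dyW2, and *Krt33a*, a hair shaft keratin, took 50.7% of those of the library labelled dyW3. Of the 38 keratins, 22 had no read in any dyW library, 13 had reads in 1, 2 in 2 and *Krt10* in all 3. By contrast, 26 had reads in all 4 WT libraries, 10 in 3 and 2 in 2.

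**Figure D1:**
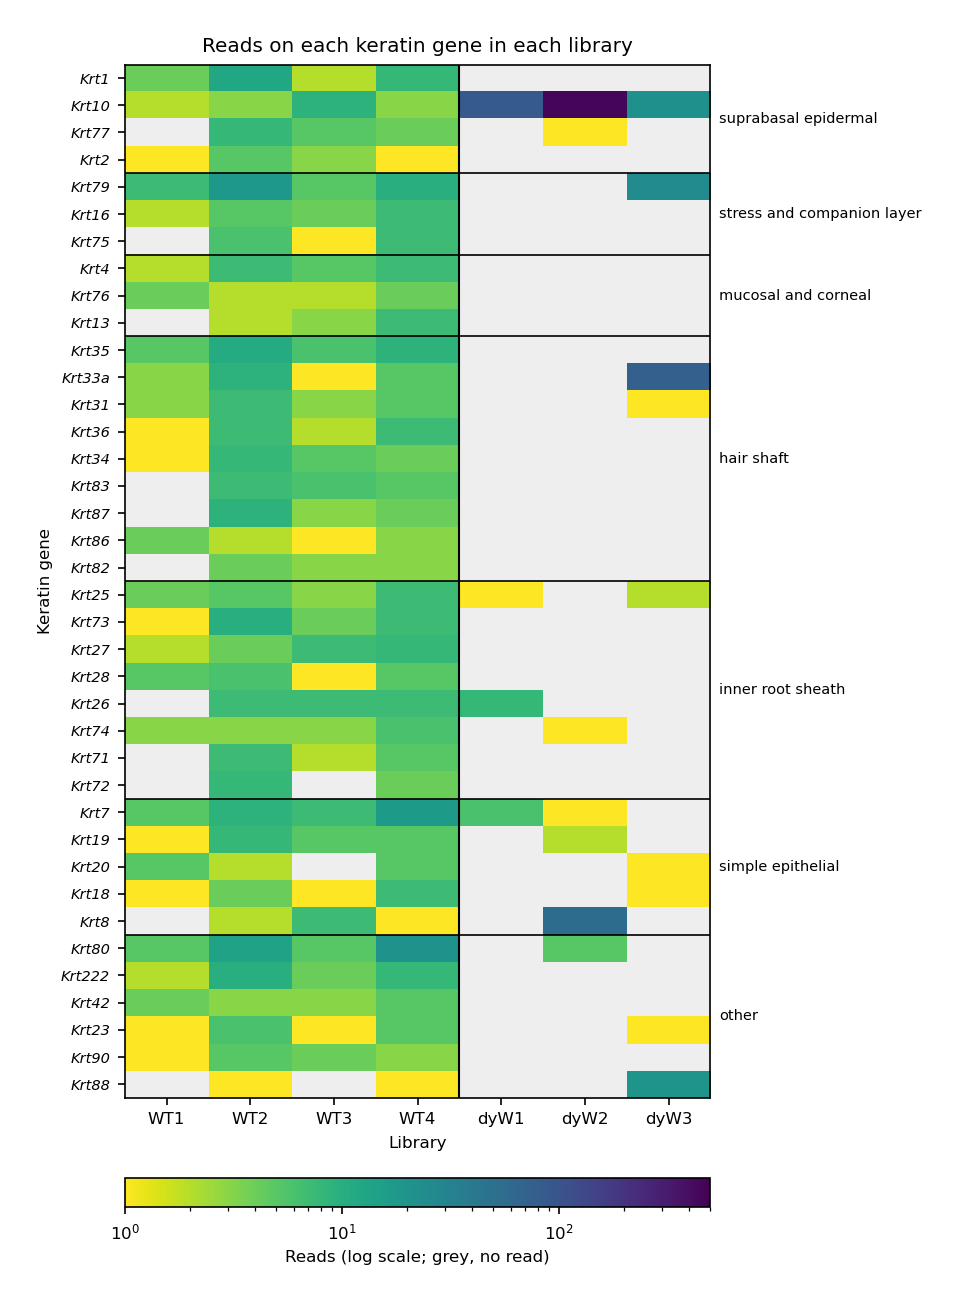
Reads on each of the 38 keratin genes (rows, by group) in each of the 7 libraries (columns), with colour on a log scale and grey for no read. The 4 WT columns are filled with low numbers, at most 21 reads, whereas the dyW columns are mostly grey apart from a few genes such as *Krt10*, with 85, 457 and 22 reads.

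For the test, genes with a mean of at least 5 normalized counts over the 7 libraries were compared on log2(normalized count + 1) with limma, and a gene is termed called past a Benjamini-Hochberg adjusted P of 0.01 and an absolute log2 fold change of 1.5. On this scale the fold change of a low gene is understated. The filter was passed by 32 keratins, of which 18 had no dyW read and so passed through their WT level alone. *Krt2*, *Krt8*, *Krt13*, *Krt72*, *Krt82* and *Krt88* were not tested. Of the 32, 18 were called lower in dyW and 0 higher, while 30 had an unadjusted P under 0.05, and 14 were not called. Of the 18 called lower, 12 had no dyW read, so that shares of members called rest in part on genes selected through WT. At an adjusted P under 0.05 and the same fold change, 23 were lower and 0 higher, against 29.6% and 1% of all tested genes. Among all 25791 tested genes, 18.7% were called lower and 0.0659% higher, and among those with a mean from 5 to 50 normalized counts, where every tested keratin lies, 23.8% were called lower. Every dyW library was below every WT library for 22 of the 32 keratins, against 31.5% of all tested genes and 39.2% of those at the same mean level, and the reverse held for 0 keratins and 3.28% of all tested genes. With no filter, 16 of 38 keratins were called lower, against 15.2% of all genes.

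The median log2 fold change of the 32 keratins was −3.55, against −1.99 for all tested genes, a difference of −1.56. This difference was −2.28 when every library was given an equal total, where only 24 keratins passed the filter and 0 were called. It was −0.14 after quantile normalization, where 21 of 32 keratins had a negative fold change, 0 were called and 1 had an unadjusted P under 0.05. With each library left out in turn, the filter was applied anew, so the tested set changed. The number called lower was 22 of 30 without WT1, 22 of 32 without WT3, and 17 of 34 without the library labelled dyW3. The shares of all tested genes called lower there were 18.6%, 20.4% and 25.8%. Without dyW1 the number was 2 of 34 (*Krt7* and *Krt35*), beside 7.76% of all tested genes. It was 0 without WT2, WT4 or dyW2, where 0% of all tested genes were called lower. There 19 of 23, 20 of 25 and 23 of 34 keratins had an unadjusted P under 0.05. Voom in limma on the recovered reads, chosen after seeing the data, called 23 of 32 lower, beside 23.6% of all tested genes. Of these 23, 16 are among the 18.

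**Figure D2:**
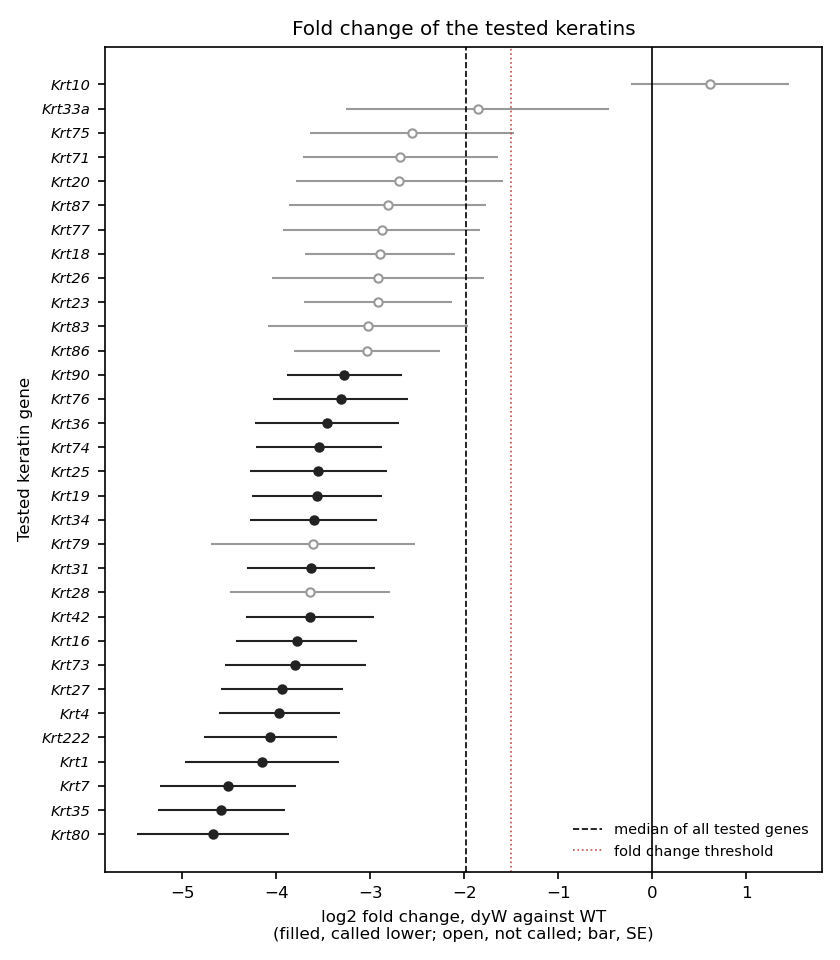
Log2 fold change of the 32 tested keratins in dyW against WT (x axis, limma on log2(normalized count + 1); bars, SE), filled where called lower. All but *Krt10* lie at negative values, from −1.86 for *Krt33a* to −4.67 for *Krt80*, with the median of all tested genes at −1.99; after quantile normalization 21 of 32 remain negative.

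The suprabasal keratins were split between members, with most of the *Krt10* reads of the dyW group in dyW2. *Krt1* (chromosome 15, 101753861 to 101759229, GRCm39, minus strand) is the type II keratin that strengthens the spinous and granular layers. It was at 21.3, 32.4, 4.10 and 25.2 normalized counts in WT and had no read in dyW. Its dyW mean was at least 29.1-fold below its WT mean, with 3 reads allowed in each dyW library. Such bounds, here and below, take the WT mean as it stands and cover neither the spread nor the counting error of WT. *Krt1* was called lower (log2 fold change −4.15, SE 0.82, limma adjusted P = 0.00545). Its type I partner *Krt10* (chromosome 11, 99276072 to 99280195, minus strand) was at 10.7, 8.09, 18.5 and 9.44 in WT and at 8.28, 57.8 and 10.7 in dyW. For *Krt10* the groups overlapped, and dyW2 alone was above every WT library. The log2 fold change of *Krt10* was 0.62 (SE 0.84, limma adjusted P = 0.602; exact two-sided permutation P = 0.514), and −0.21 without dyW2.

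In reads, the pair was thus 26 for *Krt1* and 17 for *Krt10* over the 4 WT libraries, and 0 against 564 over the 3 dyW libraries, of which 81.0% came from dyW2. *Krt10* made up 1.22% to 6.77% of the keratin reads of a WT library. Its share was 14.9% in the library labelled dyW3, and over the 3 dyW libraries pooled it was 73.2%, or 43.1% without dyW2. The other suprabasal members were as sparse as *Krt1*. *Krt77*, a type II keratin of embryonic skin and sweat ducts, was at 0, 21.6, 10.3 and 12.6 in WT and at 0, 0.126 and 0 in dyW, and was not called (limma adjusted P = 0.0658). *Krt2*, a late suprabasal keratin, was at 5.33, 13.5, 6.15 and 3.15 in WT with no read in dyW, at least 9.87-fold lower, but it was under the filter. *Krt9* and *Krt78* were not analysed here, nor were the basal keratins *Krt5*, *Krt14* and *Krt15*, so that no basal pair can be set against the suprabasal one.

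Simple epithelial keratins, made by single-layered epithelia such as ducts and gut lining, were also uneven between partners, in 1 library. *Krt8* (chromosome 15, 101905133 to 101912917, minus strand) was at 0, 5.39, 14.4 and 3.15 normalized counts in WT and at 0, 7.08 and 0 in dyW, the middle value being 56 reads. *Krt18* (chromosome 15, 101936615 to 101940462, plus strand) was at 5.33, 10.8, 2.05 and 22.0 in WT and at 0, 0 and 0.488 in dyW, the last being 1 read. So dyW2 held 56 reads of *Krt8* without a read of its partner. *Krt8* was under the filter (exact two-sided permutation P = 0.571), and *Krt18* was not called (log2 fold change −2.90, SE 0.80, limma adjusted P = 0.0230) although its groups did not overlap.

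*Krt7* and *Krt19*, keratins of ductal and glandular epithelia, were called lower. *Krt7* (chromosome 15, 101308924 to 101328194, plus strand) was at 26.7, 24.3, 14.4 and 53.5 in WT and at 0.585, 0.126 and 0 in dyW (log2 fold change −4.51, SE 0.72, limma adjusted P = 0.00374). The pooled ratio of *Krt7* between WT and dyW was 80.5, with a 95% interval of 35.5 to 214 that, like every interval here, covers counting error only. *Krt19* was at 5.33, 21.6, 10.3 and 15.7 in WT and at 0, 0.253 and 0 in dyW (log2 fold change −3.57, SE 0.69, limma adjusted P = 0.00529), and its sign turned after quantile normalization, to 0.20. *Krt20*, a keratin of the gut lining, was at 26.7, 5.39, 0 and 15.7 in WT and at 0, 0 and 0.488 in dyW, and was not called (limma adjusted P = 0.0908).

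Among the 9 hair shaft keratins, 8 were tested and 4 were called lower, *Krt31*, *Krt34*, *Krt35* and *Krt36* (50%, against 18.7% of all tested genes and 23.8% of those with a mean from 5 to 50 normalized counts). Of these, *Krt34*, *Krt35* and *Krt36* had no dyW read and passed the filter through their WT level alone. *Krt35*, a keratin of the hair matrix and cuticle (chromosome 11, 99983019 to 99987067, minus strand), was at 26.7, 29.7, 12.3 and 28.3 in WT with no read in dyW, at least 34.0-fold lower (log2 fold change −4.58, SE 0.67, limma adjusted P = 0.00372). *Krt31*, of the hair cortex, was at 16.0, 18.9, 6.15 and 15.7 in WT and at 0, 0 and 0.488 in dyW (log2 fold change −3.63, SE 0.68, limma adjusted P = 0.00476). The type II hair keratins *Krt83*, *Krt86* and *Krt87* had no read in dyW either, but were not called, with 7, 2 and 9 reads at WT2 and none of *Krt83* and *Krt87* at WT1.

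*Krt33a*, the close relative of *Krt31*, differed from the other hair keratins in one library. Its levels were 16.0, 24.3, 2.05 and 15.7 in WT, and 0, 0 and 36.6 in dyW, where all 75 reads came from the library labelled dyW3 (log2 fold change −1.86, SE 1.40, limma adjusted P = 0.338). In dyW1, dyW2 and that library, the hair follicle genes summed to 2.92, 4.43 and 87.4 normalized counts, the epidermal genes to 36.2, 0.253 and 103, and the desmosome and plakin genes to 633, 167 and 421. By gene, the library labelled dyW3 was the highest dyW library for 3 of 6 hair follicle genes, 4 of 14 epidermal genes and 4 of 14 desmosome and plakin genes, and dyW1 for 1, 4 and 7, while 1, 6 and 3 had no dyW read. Those given next were chosen after their values were seen. *Tchh*, trichohyalin of the inner root sheath, was at 75.7 there, against 2.73 and 4.30, and *Dsc3* and *Dsg1a*, desmosomal cadherins, were at 75.2 and 68.4 against no read. The 9 keratin-associated protein genes (Krtap) summed to 78.6 there and to 0 in the other dyW libraries, against 20.5 to 110.6 in WT. Odorant and vomeronasal receptor genes, which belong to the nose, had a read for 56.5% of 1207 genes in that library and for 15.9% and 9.69% in dyW1 and dyW2.

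All 8 inner root sheath keratins were measured, the sheath being the sleeve that guides the growing hair, and 7 were tested. *Krt25*, *Krt27*, *Krt73* and *Krt74* were called lower, 4 of 7 (57.1%) against the same 18.7% and 23.8%. *Krt27* and *Krt73* had no dyW read and passed the filter through their WT level alone. The sign of *Krt74* turned after quantile normalization, to 0.28, and 92.6% of its 50-base stretches were also found in another gene model. *Krt27* was at 10.7, 10.8, 14.4 and 25.2 in WT with no read in dyW, at least 21.4-fold lower (log2 fold change −3.94, SE 0.65, limma adjusted P = 0.00374), and *Krt73* was at 5.33, 27.0, 8.21 and 22.0 with no read in dyW. *Krt25*, another type I keratin of the sheath, was at 21.3, 13.5, 6.15 and 22.0 in WT and at 0.0974, 0 and 0.977 in dyW. *Krt26* was not called despite low dyW levels of 0.780, 0 and 0, with 0 in WT1 and 18.9, 14.4 and 22.0 in the other WT libraries (limma adjusted P = 0.0773). The summed level of the group was 55.4 to 154 in WT and 0.126 to 0.977 in dyW.

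The mucosal keratins had no dyW read at all. *Krt4*, of the oesophagus and mouth lining, was at 10.7, 18.9, 10.3 and 22.0 in WT and was called lower, at least 21.7-fold (log2 fold change −3.97, SE 0.65, limma adjusted P = 0.00374), as was *Krt76* of the palate, at 21.3, 5.39, 4.10 and 12.6 (limma adjusted P = 0.00788). *Krt13*, the partner of *Krt4*, was at 0, 5.39, 6.15 and 22.0 in WT and was under the filter.

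Of the stress and companion layer keratins, *Krt16*, which rises in wounded skin, was called lower, with 10.7, 13.5, 8.21 and 22.0 in WT and no read in dyW (limma adjusted P = 0.00393). *Krt79*, of the follicle's upper canal, was at 37.3, 48.5, 10.3 and 31.5 in WT and at 0, 0 and 12.2 in dyW, the last being 25 reads. It was not called (log2 fold change −3.61, SE 1.09, limma adjusted P = 0.0334), but it was without the library labelled dyW3, at −4.85 and an adjusted P of 0.00252. *Krt75*, the companion layer keratin, had 0, 16.2, 2.05 and 22.0 in WT and no read in dyW, and was not called (limma adjusted P = 0.102).

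Keratins outside these groups included the one with the highest mean normalized count in WT. *Krt80*, a widely expressed keratin (chromosome 15, 101245325 to 101268043, minus strand), was at 26.7, 37.8, 10.3 and 66.1 in WT, its 21 reads in WT4 being the most of any keratin in a WT library, and at 0, 0.632 and 0 in dyW (log2 fold change −4.67, SE 0.81, limma adjusted P = 0.00412). *Krt222*, a keratin-like gene that lacks part of the usual protein, was at 10.7, 27.0, 8.21 and 25.2 in WT with no read in dyW, at least 24.9-fold lower. *Krt42* and *Krt90*, also called lower, were at least 18.0-fold and 12.8-fold lower. *Krt88*, with 1 read in WT2 and 1 in WT4, had 20 reads in the library labelled dyW3 and none in the other dyW libraries. It and *Krt10* were the 2 keratins whose mean was higher in dyW than in WT, and both ranges overlapped.

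**Figure D3:**
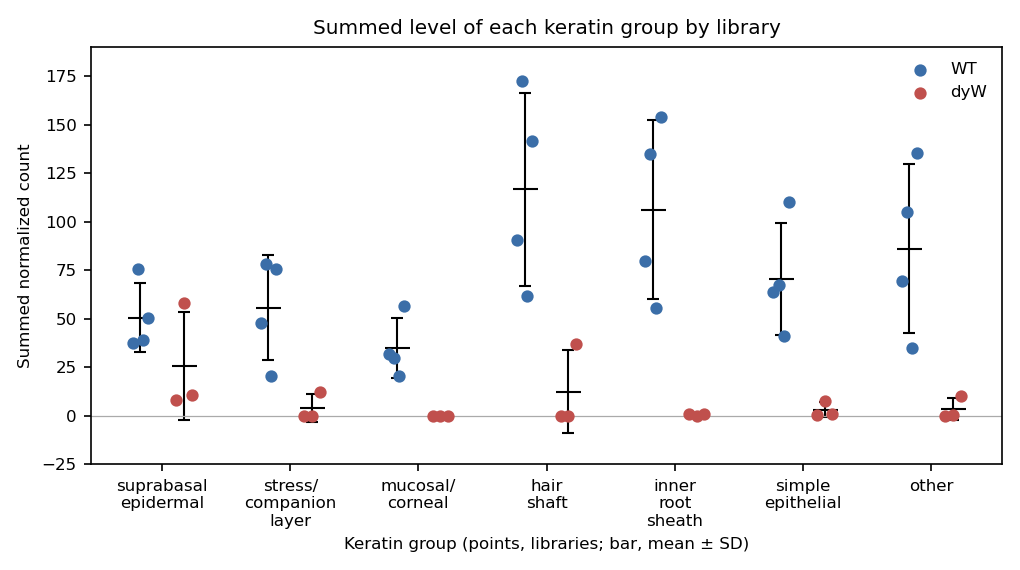
Summed normalized count of each keratin group in each library (points; bars, mean ± SD; 4 WT and 3 dyW libraries). The genotypes overlap for the suprabasal keratins, where dyW2 reaches 57.9 through *Krt10* against 37.3 to 75.5 in WT, and for none of the other 6 groups.

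Per kilobase of exon, the WT levels of the 38 keratins ran from 1.58 normalized counts per kb for *Krt88* to 10.1 for *Krt35*, with *Krt27* at 9.84 and *Krt28* at 9.30, and *Krt1* and *Krt10* at 4.70 and 5.48. The median keratin had 4 reads in a WT library, and 64 of the 152 WT values were of 3 reads or fewer. Longer keratin genes tended to have more reads. Over the 38 keratins, which share their libraries, log2 exon length and log2 summed WT reads had a Pearson correlation of 0.648 and a Spearman correlation of 0.355.

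Those levels were set beside the 1207 receptor genes, as genes of another tissue. The median receptor gene had 0.632, 2.48, 1.76 and 1.85 reads per kb in WT1 to WT4, and the median keratin had 1.04, 1.05, 0.738 and 1.31 times as many. Summed over WT, the reads of single keratins ranged from 0.322 (*Krt88*) to 2.01 (*Krt27*) times the number that the receptor median gives for their exon length, with a median of 1.01, and 19 of 38 were above 1. The WT libraries showed 2 keratins above the 95th percentile of the receptor genes, *Krt18* and *Krt27*, both in WT4. In dyW the median was 0, 0 and 1.08 reads per kb for receptors and 0 for keratins in each library. *Krt10* exceeded the receptors' 95th percentile in dyW1 and dyW2 but not in the library labelled dyW3, where that percentile was 71.3 reads per kb. In dyW2, where it was 0.338, *Krt8*, *Krt19*, *Krt74* and *Krt80* exceeded it too, with 56, 2, 1 and 5 reads. Of 1083 tested receptor genes, 36.9% were called lower, with a median log2 fold change of −3.22. No test was made of the difference from the keratins.

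**Figure D4:**
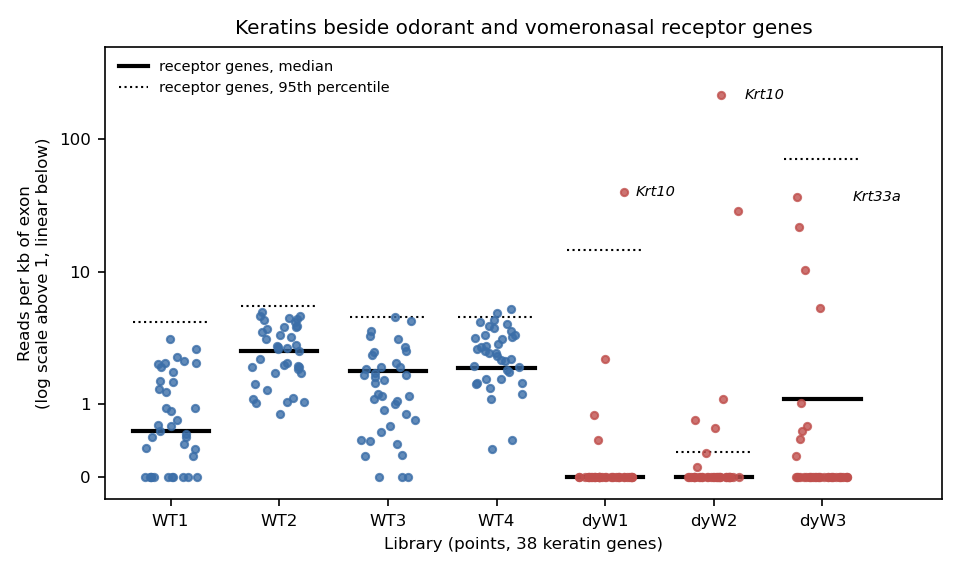
Reads per kb of exon of the 38 keratins in each library (points, WT blue and dyW red; log scale above 1, linear below), with the median (thick line) and 95th percentile (dotted) of 1207 odorant and vomeronasal receptor genes. In WT the keratins scatter about the receptor median, whereas in dyW1 and dyW2 *Krt10* stands above both lines.

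Genes that work with keratins were mixed. Of the 14 tested desmosome and plakin genes, which anchor keratin filaments to junctions, 6 were called lower and 0 higher (42.9%, against 18.7% lower among all tested genes and 23.8% among those with a mean from 5 to 50 normalized counts). *Evpl*, envoplakin of the cornified envelope, was at 32.0, 29.7, 10.3 and 75.5 in WT and at 1.85, 0 and 0 in dyW (limma adjusted P = 0.00541), and *Dsg1b*, a desmosomal cadherin of the upper epidermis, at 5.33, 13.5, 4.10 and 18.9 with no read in dyW (limma adjusted P = 0.00750). The 8 not called were both epithelial genes, namely *Dsc3*, *Dsg1a*, *Dsg3*, *Perp* and *Ppl*, and *Dst*, *Plec* and *Jup*, which cells outside epithelia also make. *Dsc3* and *Dsg1a*, in the library labelled dyW3, and *Plec* and *Jup*, in dyW1, each had a dyW library above every WT library. *Dst* was at 101 to 197 in WT and 151 to 192 in dyW.

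Of 13 tested genes of epidermal identity and the cornified envelope, 7 were called lower (53.8%, against the same 18.7% and 23.8%). *Trp63*, the transcription factor of stratified epithelia, was at 53.3, 45.8, 28.7 and 72.4 in WT and at 3.31, 0 and 2.44 in dyW (log2 fold change −4.30, SE 0.78, limma adjusted P = 0.00449). *Flg2*, a filaggrin relative that binds keratin in the outer epidermis, was at 74.6, 129, 32.8 and 84.96 in WT without a read in dyW (log2 fold change −6.19, SE 0.73, limma adjusted P = 0.00372). Together with the suprabasal keratins, the epidermal markers summed to 224 to 500 in WT and to 44.4, 58.2 and 113 in dyW, and 8 of the 18 had no read in any dyW library, *Krt1* and *Flg2* among them. Others went the opposite way in 1 library: *Epcam*, an adhesion protein of epithelia, was at 28.1 in dyW1 against at most 25.2 in WT, and *Esrp1* and *Krtdap* were at 52.7 and 28.8 in the library labelled dyW3 against at most 40.9 and 12.6. None of these 3 was called (limma adjusted P = 0.339, 0.156 and 0.963). The part of the epidermal markers in the keratin result was not tested. Of 6 tested hair follicle genes, 3 were called lower (50%, against the same shares), *Lhx2*, *Padi3* and *Dsg4*. *Tchh* was not called (log2 fold change −0.36, SE 1.17, limma adjusted P = 0.837).

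The other intermediate filament genes were called lower in 2 of 14 cases and higher in 0, and the 14.3% called lower is near the 18.7% of all tested genes. The 2 were *Nefl* and *Ina*, neurofilament genes without a read in dyW. *Vim*, the filament of mesenchymal cells, was at 197, 520, 749 and 985 in WT and at 848, 2095 and 886 in dyW (log2 fold change 1.15, SE 0.64, limma adjusted P = 0.201). *Des*, the muscle filament, was at 21.3, 110.6, 156 and 151 in WT and at 0, 110.8 and 85.5 in dyW (limma adjusted P = 0.359), and *Lmna*, a nuclear lamin, was not called.

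Some keratins share much sequence with other gene models, and reads that did not map uniquely were not counted. Where the other model overlaps the keratin at the same locus, as the lncRNA models of *Krt74* and *Krt8* do, a uniquely mapped read may fit both. Of the 50-base stretches of its longest transcript, 92.6% in *Krt74* were also found in another gene model, an lncRNA model of the same name included. The share was 43.1% in *Krt86*, 36.0% in *Krt16*, 33.9% in *Krt87*, 33.1% in *Krt34*, 29.7% in *Krt8*, 28.1% in *Krt31*, 23.2% in *Krt83* and 21.9% in *Krt33a*. *Krt31*, *Krt33a* and *Krt34* shared stretches with each other. *Krt8* shared its stretches with a pseudogene, *Krt8-ps*, and the antisense lncRNA *Gm36026*. Over 10% was shared in 12 keratins and none in 9, *Krt1* among them. The strand setting of the counts is not given in the sources used here, so reads in the 296 exon bases that *Krt80* shares with *Gm35853* on the other strand, out of 6393, cannot be assigned. *Gm35853* was at 16.0, 18.9, 16.4 and 53.5 in WT and at 0, 0 and 0.977 in dyW. For *Krt10*, 146 exon bases overlap *Gm11940* on the other strand, and 2.43% of its stretches were shared.

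Promoters were read from RefSeq sequences (build GRCm38.p6, not the GRCm39 of the counts) for 25 of the 38 keratins, with 26 starts. The 60 bases before the start held TATAAA or its reverse complement TTTATA in 11 of 26 keratin promoters (42.3%), and in 3.92% of all 32851 promoters. They are shown for *Krt10* and *Krt8*, which had the most reads in dyW beside *Krt33a*, for the sparse *Krt77* and *Krt18* of the same groups, and for *Krt25* and *Krt31*, called lower, all 5′ to 3′ with TATAAA in capitals. *Krt10*, at chr11:99389365-99389424 on the minus strand, has the motif, as do *Krt25*, at chr11:99322952-99323011, and *Krt31*, at chr11:100050552-100050611, both also on the minus strand. *Krt77*, at chr15:101869706-101869765, and *Krt8*, at chr15:102004343-102004402, both on the minus strand, and *Krt18*, at chr15:102028156-102028215 on the plus strand, do not hold these letters in the window. The motif is therefore on both sides of the split, in *Krt10* with its dyW reads and in *Krt25* and *Krt31* with at most 2 in a library.
Krt10: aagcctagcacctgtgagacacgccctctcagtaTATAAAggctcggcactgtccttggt
Krt77: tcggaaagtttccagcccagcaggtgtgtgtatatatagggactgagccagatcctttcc
Krt8: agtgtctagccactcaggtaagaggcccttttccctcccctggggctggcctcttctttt
Krt18: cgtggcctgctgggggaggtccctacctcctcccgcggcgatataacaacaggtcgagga
Krt25: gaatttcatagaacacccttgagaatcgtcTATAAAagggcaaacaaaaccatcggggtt
Krt31: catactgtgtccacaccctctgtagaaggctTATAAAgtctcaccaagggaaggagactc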

How the data were processed

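RNA of muscle fibers was sequenced from 4 WT and 3 dyW fetuses. Per the study's methods, the authors trimmed with Cutadapt, mapped to GRCm39 by RNA STAR and counted uniquely mapped reads per gene by FeatureCounts. The authors deposited counts divided by 1 DESeq2 size factor per library. Tool versions, annotation release and strand setting are not given in the sources used here. Their second table, of fold changes and P-values, was not used.

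Every value was a whole multiple, within 0.1, of 1 step per library, which gave the reads. Genes whose mean reached 5 normalized counts were fitted on log2(normalized count + 1), a pseudocount of 1, in limma 3.58.1 (R 4.3.3; lmFit, then eBayes with its trend option). P-values were adjusted by Benjamini-Hochberg over 25791 genes. For single genes an exact two-sided permutation test was run, whose smallest P for 4 against 3 libraries is 0.0571, the value of every gene whose groups do not overlap. The floor was 3 reads in each dyW library, a group mean of 0.712 normalized counts, and ratios with few dyW reads carry exact 95% intervals. Folds given as at least a value are the WT mean divided by this floor, without the spread of WT. Exon lengths came from GENCODE M39, which held 99.2% of the identifiers. The other packages were scipy 1.17.1, pandas 2.3.3, matplotlib 3.10.9 and numpy 2.4.6 under Python 3.11.15. The fit was tested on simulated data.

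The members and lists were chosen with earlier results of these data known. Genes named by rule are the suprabasal and simple epithelial keratins, every keratin called, the 3 of highest mean in each other keratin group and partner list, the called partners of lowest and highest fold change, *Lama2* and markers of cell types. *Krt26*, *Krt28*, *Krt83*, *Krt86*, *Krt87*, *Krt88*, *Dsc3*, *Dsg1a*, *Dsg3*, *Dsg4*, *Perp*, *Ppl*, *Epcam*, *Esrp1* and *Krtdap* were named after their values were seen, and keratins under the filter were named to account for every member. Keratins not analysed here, for want of a row under their symbol, are *Krt5*, *Krt6a*, *Krt6b*, *Krt9*, *Krt12*, *Krt14*, *Krt15*, *Krt17*, *Krt32*, *Krt33b*, *Krt39*, *Krt40*, *Krt78*, *Krt81* and *Krt84*. The alternatives were other pseudocounts, filters, scalings and thresholds, a replicate block, each library left out and, chosen after seeing the data, voom in limma on the reads.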

Additional observations from a re-analysis of the deposited data

Results flagged for a closer look

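*Jup*, plakoglobin of desmosomes and other junctions, was marked by a WT library far from the others. Its normalized count was 123, 121, 80.0 and 120 in WT1 to WT4, and the gap of WT3 to the nearest library made up 0.928 of the group's range (Dixon's ratio, past its 95% critical value). Chance alone marks about 1 in 20 such groups, and no keratin was marked.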

How the results depend on the processing

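The number of keratins called lower (18) was 0 with a pseudocount of 10 and after quantile normalization. It was also 0 with an equal total for every library and with a replicate block. In these settings, in that order, 29, 1, 20 and 25 keratins had an unadjusted P under 0.05 in limma, of 32, 32, 24 and 32 tested. It was 21 with a pseudocount of 0.1 and 23 with an adjusted P under 0.05. Leaving out each library gave a range from 0 to 22. No keratin has a mean of 50 normalized counts, so that filter gives no keratin value. In no setting was a keratin called higher. The median keratin fold change (−3.55) was −6.34 with a pseudocount of 0.1 and −1.11 with 10, −0.076 after quantile normalization and −6.56 under voom, beside −3.26, −0.80, 0.06 and −2.68 for all genes.

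Over all genes, 4830 were called lower and 17 higher. These counts were 0 and 0 with a pseudocount of 10, a mean of at least 50 or an equal total, where 10626, 1253 and 9020 genes had an unadjusted P under 0.05, 2 and 0 after quantile normalization (3985), and 1 and 0 with the replicate block (8843). An adjusted P under 0.05 gave 7625 and 259, and the number higher was 41 with a pseudocount of 0.1, 10 without a filter and 5 under voom. With each library left out, the number lower ranged from 0 to 6698 and the number higher from 0 to 25. The replicate numbers do not pair the samples: the correlations of same-numbered libraries were 0.147, −0.05 and −0.09.

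Single fold changes were followed across the settings for 25 keratins and 19 other genes, and not for the remaining tested keratins. Among those followed, signs turned, with no call, after quantile normalization for *Krt77* (0.37), *Krt75* (0.18), *Krt33a* (0.87), *Krt19* (0.20), *Krt20* (0.35), *Krt18* (0.29), *Krt74* (0.28), *Dst* (−0.50), *Ovol1* (0.016), *Tchh* (2.12) and *Lhx2* (0.35). They turned for *Tchh* (0.0052) with a pseudocount of 10, for *Tchh* (0.64) and *Lmna* (0.68) with an equal total, for *Tchh* (0.45) and *Des* (0.16) without dyW1, and for *Krt10* (−0.21), *Plec* (0.60), *Tchh* (0.20) and *Lmna* (0.15) without dyW2. Over all libraries left out in turn, the fold change ranged from −0.21 to 1.12 for *Krt10*, from −2.49 to 0.60 for *Plec*, from −1.73 to 0.45 for *Tchh*, from −1.36 to 0.15 for *Lmna* and from −3.24 to 0.16 for *Des*. The cause was not tested. Depth limits both groups: 64 of 152 WT keratin values rest on 3 reads or fewer, and 94 of 114 dyW values are at 0.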

Other observations

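*Krt85*, a type II keratin of the hair matrix, was not among the 38 because the table gives its identifier the clone name AC103674,4. Under that name it had 1, 10, 1 and 8 reads in WT and none in dyW (log2 fold change −3.45, SE 0.91, limma adjusted P = 0.0185), and was not called.

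Pigment cells, which sit in the same skin and follicles as the hair keratins, were followed by 5 melanocyte genes. *Pmel*, of the pigment granule, was at 21.3, 53.9, 4.10 and 34.6 in WT with no read in dyW (limma adjusted P = 0.00616), and *Dct*, a melanin enzyme, at 48.0, 21.6, 34.9 and 37.8 in WT and at 0.877, 6.45 and 0 in dyW (limma adjusted P = 0.00851). Both were called lower, 2 of 5 (40%) against 18.7% of all tested genes. The share was 23.8% among genes with a mean from 5 to 50 normalized counts and 36.9% among the receptor genes. The other 3 were not called, and of these *Tyr* and *Sox10* were at 28.8 and 21.0 in the library labelled dyW3, within their WT ranges. The 8 fibroblast genes summed to 4180 to 14753 in WT and to 21953 to 32631 in dyW, where 0 were called in either direction. At an adjusted P under 0.05 in limma 2 of the 8, *Pdgfra* and *Col1a2*, were higher, against 1% of all tested genes, while *Thy1* had a log2 fold change of −2.23 and did not pass.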
